A study of Mus musculus with 36 samples.

Results

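Wild-type libraries labelled SN were compared with wild-type libraries labelled STR, all of them C57 mouse brain tissue. The comparison took the 6 libraries of the gene table whose labels give the genotype WT and the region SN (3 libraries) or STR (3 libraries), out of 36 libraries in the series. The mice were 6 to 7 weeks old. The labels do not spell the regions out, and SN and STR were read as substantia nigra and striatum, a reading set against region markers below. The whole series covers 6 brain regions in WT mice and in knock-in mice, and its title ties the knock-in to a synonymous base change in Maoa, the gene of monoamine oxidase A. No knock-in library entered the tests. Nothing in the labels ties the 3 libraries of a region to different mice or says whether same-numbered SN and STR libraries share a mouse. The p-values therefore weigh a difference against the spread of these libraries alone, and that spread could be technical. The tissue was bulk tissue, in which fewer cells of a type and less RNA per cell cannot be told apart.

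The substantia nigra and the striatum are joined by the nigrostriatal pathway. Dopamine neurons of the substantia nigra pars compacta make dopamine and send their axons to the striatum, and the GABA neurons of the pars reticulata form an output of the basal ganglia. The striatum consists mostly of spiny projection neurons, which receive that dopamine: the direct-pathway cells carry Drd1 and project back to the nigra, and the indirect-pathway cells carry Drd2 and Adora2a and project to the pallidum. A transcript marks the place of the cell body, while the protein may act at the far end of the axon.

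Library totals of estimated counts lay between 17324314 and 18374038, and the log2 expression profiles correlated at 0.974 to 0.983 within a region and at 0.914 to 0.935 between regions. Of 14621 genes tested, 620 (4.24%) were higher in SN and 993 (6.79%) were lower by edgeR's quasi-likelihood test at a Benjamini-Hochberg adjusted p under 0.05, 11% in all. The median log2 fold change over all genes tested was -0.01, and 89.4% of genes lay within 2-fold. Among the calls, 52 genes were at least 16-fold higher in the fit and 137 at least 16-fold lower. In every called gene the 3 SN libraries lay on the same side of the 3 STR libraries, which 30.1% of all genes tested also showed. The counts depended on single libraries: without the first SN library 302 genes were called higher and 500 lower, without the third SN library 377 were higher, without the first STR library 357 and without the third STR library 355.

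**Figure D1:**
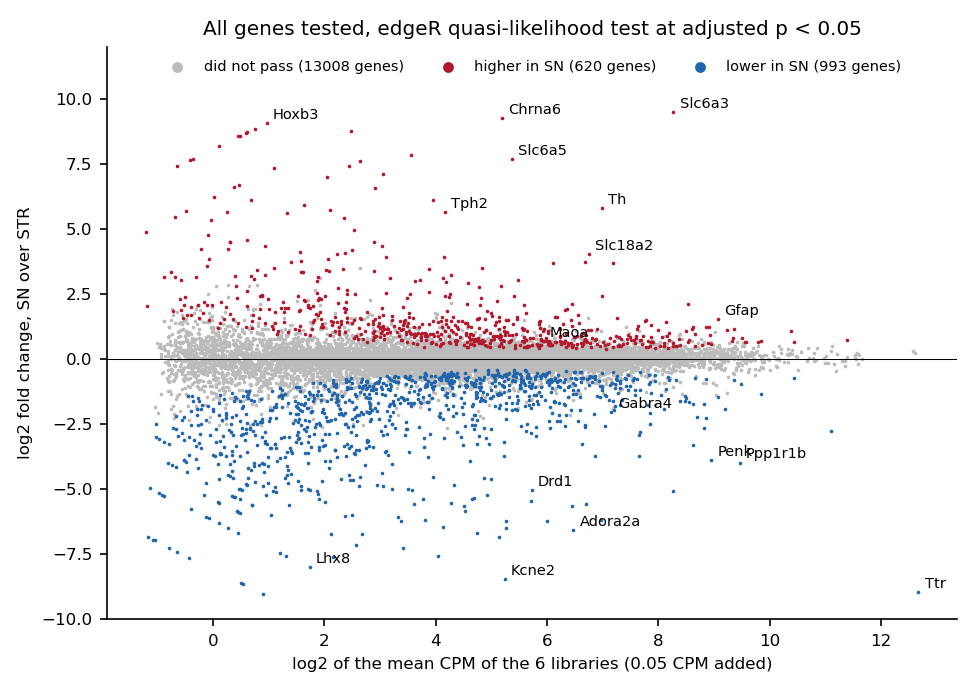
Fitted log2 fold change of SN over STR (vertical axis) against the log2 of the mean CPM of the 6 libraries (horizontal axis) for 14621 genes; red points were higher in SN (620) and blue points lower (993) by edgeR. The labelled genes include Slc6a3 and Chrna6 at the top and Ttr and Kcne2 at the bottom, with most genes close to 0.

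Defining markers of the named tissue were present under both labels. Unless another scale is named, levels are given as CPM, the share of all counts of a library that fell on the gene, on the usual per-library scale. The dopamine transporter gene Slc6a3 lay between 267.1 and 1107 CPM in the SN libraries and at 1.89 CPM or less in the STR libraries. Ppp1r1b, which encodes the DARPP-32 phosphoprotein of spiny neurons, lay between 771.5 and 2204 CPM in STR and between 64.1 and 111.7 CPM in SN. Each region also held transcripts of tissue beside the one its label names. The STR libraries held choroid plexus genes, the SN libraries held hindbrain and raphe genes, the second SN library was high in cortical genes, and STR libraries 2 and 3 were high in thalamic genes. Their values stand below beside the results they move with.

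Genes of dopamine handling were higher in SN. Of 12 listed genes, all of them tested, 7 passed the test as higher and none as lower, with a median log2 fold change of 1.41. Slc6a3 reached the level of the low count filter in SN alone. The 7 were the transporter Slc6a3, the rate-limiting synthesis enzyme Th, the decarboxylase Ddc, the vesicle transporter Slc18a2, Gch1, which makes the tetrahydrobiopterin cofactor of Th, the aldehyde dehydrogenase Aldh1a1 and Maoa. Slc6a3 (chr13:73536128-73578672, GRCm38.p6) had 1107, 267.1 and 472.1 CPM in SN libraries 1, 2 and 3 against 0.225, 0.381 and 1.89 CPM in STR libraries 1, 2 and 3. The first SN library was the highest and the second the lowest, and the regions were far from overlapping. The log2 fold change was 9.51 ± 0.895 (SE, n = 3 against 3; 730.4-fold; edgeR adjusted p = 0.00118).

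Th (chr7:142892779-142899995) had 458.1, 120.7 and 168.8 CPM in the SN libraries and 7.2, 2.67 and 3.51 CPM in the STR libraries. Its log2 fold change was 5.79 ± 0.662 (SE, edgeR adjusted p = 0.00238). Slc18a2 (chr19:59260878-59296012) had 297.5, 95.1 and 214.5 CPM in SN and 11.1, 13.2 and 12 CPM in STR, a log2 fold change of 4.05 ± 0.409 (edgeR adjusted p = 0.00153). The STR values of Slc18a2 were close together, and the SN values followed the order seen for Slc6a3. Ddc (chr11:11814101-11898144) had 438.6, 129.9 and 244 CPM in SN and 17.4, 27.5 and 18.4 CPM in STR, a log2 fold change of 3.68 ± 0.452. Gch1 reached 16.2 ± 7.22 CPM (SD, n = 3) in SN and 1.83 ± 0.282 CPM in STR. In all 5 of these genes the first SN library was the highest and the second the lowest. On the length-adjusted TPM scale, Slc6a3 (357.1 ± 234.5 TPM), Th (302.3 ± 204.0 TPM) and Ddc (298.0 ± 158.8 TPM) stood at similar levels in SN, and their spread between libraries was larger than the differences between their means. Slc18a2 was at 107.7 ± 52.3 TPM.

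The promoters of these 4 genes, which cover the synthesis, packaging and reuptake of dopamine, are shown because the results on dopamine handling turn on them. Each run is 250 bases before the start site and 10 bases after it, 5′ to 3′ on the strand of the gene, from RefSeq on GRCm38.p6. Capitals mark TGACGTCA, the palindromic cyclic AMP response element, or TGACCTTT, the reverse complement of AAAGGTCA, the monomer element bound by nuclear receptors of the Nr4a family. The start site in the table for Slc6a3 lies inside the annotated span of that gene, and neither motif was found in its window.
Th (chr7:142899986-142900245, minus strand): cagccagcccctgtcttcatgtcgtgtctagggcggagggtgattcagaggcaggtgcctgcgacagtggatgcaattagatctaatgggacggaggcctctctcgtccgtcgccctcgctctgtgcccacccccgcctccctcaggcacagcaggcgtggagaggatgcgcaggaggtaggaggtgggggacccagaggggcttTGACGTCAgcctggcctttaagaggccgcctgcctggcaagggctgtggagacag
Slc18a2 (chr19:59260628-59260887, plus strand): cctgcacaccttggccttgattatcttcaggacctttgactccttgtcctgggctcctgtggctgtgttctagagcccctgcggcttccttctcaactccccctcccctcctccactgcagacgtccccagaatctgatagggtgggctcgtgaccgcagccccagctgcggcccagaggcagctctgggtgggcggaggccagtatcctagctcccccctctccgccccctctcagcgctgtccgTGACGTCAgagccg
Ddc (chr11:11898135-11898394, minus strand): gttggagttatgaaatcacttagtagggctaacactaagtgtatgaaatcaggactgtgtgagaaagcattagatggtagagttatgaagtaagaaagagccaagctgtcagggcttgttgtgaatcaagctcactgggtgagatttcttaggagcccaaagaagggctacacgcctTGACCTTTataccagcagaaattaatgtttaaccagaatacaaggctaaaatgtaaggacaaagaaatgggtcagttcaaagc
Slc6a3 (chr13:73536497-73536756, plus strand): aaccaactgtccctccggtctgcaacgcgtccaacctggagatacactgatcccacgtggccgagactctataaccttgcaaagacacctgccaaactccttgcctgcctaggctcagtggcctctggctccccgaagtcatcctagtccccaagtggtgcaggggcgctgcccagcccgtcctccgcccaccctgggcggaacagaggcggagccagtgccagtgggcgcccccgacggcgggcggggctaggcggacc
The response element began 45 bases before the start of Th and 4 bases before the start of Slc18a2. Over windows of 300 bases (250 before the start and 50 after it), searched on both strands, it was found in 588 of 32851 promoters (1.79%) and in 2 of the 10 dopamine-handling genes that matched the table by symbol. Among genes tested whose identifier matched a promoter, it was in 21 of 475 higher in SN (4.42%), 12 of 758 lower (1.58%) and 362 of 10375 that did not pass (3.49%). AAAGGTCA was in 495 of the 32851 promoters (1.51%) and, of those 10 genes, in Ddc only. These matches are descriptions of the letters and not of binding.

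The monoamine oxidases differed less. Maoa (chrX:16619698-16687812), the mitochondrial oxidase whose knock-in the series was built around, had 77.8, 66.4 and 84.6 CPM in the WT SN libraries and 43.6, 49.5 and 47.1 CPM in the WT STR libraries. Every SN value was above every STR value, and the log2 fold change was 0.69 ± 0.128 (SE, 1.62-fold, edgeR adjusted p = 0.0138). The call for Maoa was lost without the first SN library (adjusted p = 0.0594). Maob, the sister oxidase found mainly in glia and serotonin neurons, had 45.2, 38.9 and 53.5 CPM in SN and 47.9, 82.6 and 60.3 CPM in STR, and its ranges overlapped. Its log2 fold change was -0.48 with a 95% interval that runs down to -0.96, and it did not pass (edgeR adjusted p = 0.2). The cofactor enzymes Spr, Qdpr and Pts, with log2 fold changes of 0.29, 0.04 and -0.02, did not pass. Aldh1a1, which oxidizes dopamine aldehyde in a ventral group of dopamine neurons, had 913.5, 388.2 and 509.2 CPM in SN and 104.5, 139.9 and 166.6 CPM in STR (log2 fold change 2.13 ± 0.335).

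**Figure D2:**
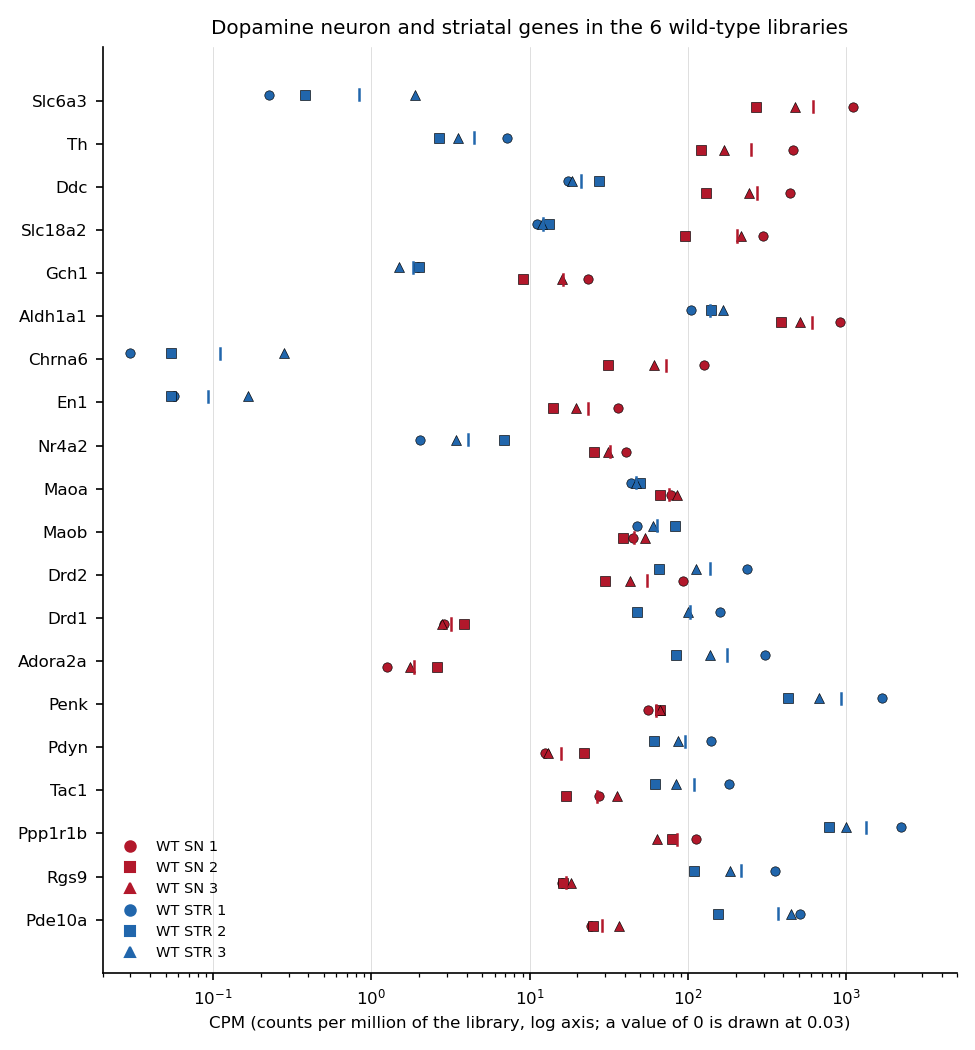
CPM on a log axis of 20 genes of dopamine neurons and of striatal spiny neurons in the 6 libraries, with a point per library and a short line at each mean (red SN, blue STR). Slc6a3 to Nr4a2 do not overlap between regions and are higher in SN, Drd2 overlaps, and Drd1 to Pde10a are higher in STR, with STR library 1 the highest and library 2 the lowest.

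Transcription factors that specify midbrain dopamine neurons rose with the transmitter genes. Of 10 listed and tested, 7 were higher in SN, 1 was lower and 2 did not pass, and 5 (En1, Foxa1, Foxa2, Lmx1b and Pitx3) reached the level of the low count filter in SN alone. En1, an engrailed factor required for the survival of these neurons, had 36.2, 14 and 19.5 CPM in SN and at most 0.167 CPM in STR (log2 fold change 7.86 ± 0.594, edgeR adjusted p = 0.000561). Nr4a2 (Nurr1), which drives Th and Slc6a3 in development, had 40.6, 25.3 and 31.1 CPM in SN and 2.02, 6.86 and 3.4 CPM in STR (log2 fold change 2.97 ± 0.404). Both followed the order of Slc6a3 over the SN libraries. Lmx1b was counted 575 times in SN and 3 times in STR, a ratio of 195.3 (95% counting interval 66.5 to 949.7). Foxa2 had 140 counts in SN and 0 in STR, which is at least 47.5-fold higher against a floor of 3 counts over the group. Pitx3, Foxa1 and En2 also rose, with log2 fold changes of 5.6, 5.44 and 2.14. Lmx1a (-0.15) and Sox6 (0.27) did not pass. Otx2 was the exception: it had 5.66, 2.6 and 4.21 CPM in SN and 30.7, 51.4 and 39.3 CPM in STR (log2 fold change -3.29 ± 0.308). Otx2 is also on the choroid plexus list, whose other members were high in the same STR libraries.

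Receptors and growth factor genes of dopamine neurons made up a further list, in which 6 of 12 tested genes rose and none fell (median log2 fold change 1.73). Of the 6, Chrna6 and Chrnb3 reached the level of the low count filter in SN alone. Chrna6 and Chrnb3, nicotinic receptor subunits that dopamine neurons carry to their terminals, had 125.7, 31.3 and 60.7 CPM and 49.0, 13.2 and 28.6 CPM in SN, against at most 0.279 and 0.98 CPM in STR. Their log2 fold changes were 9.26 ± 0.853 (edgeR adjusted p = 0.00109) and 6.13 ± 0.745 (edgeR adjusted p = 0.00295). Sncg, encoding gamma-synuclein, rose by 2.81 ± 0.327 on the log2 scale, Ntsr1, a neurotensin receptor, by 2.94 ± 0.389, and Ret, the GDNF receptor kinase, by 2.42 ± 0.443. Slc10a4, a vesicular transporter of monoamine and cholinergic neurons, was called (log2 fold change 2.41) but lost its call without the first SN, the second STR or the third STR library (largest adjusted p = 0.081). Of 18 genes of familial Parkinson disease, 1 was higher (Gch1) and 1 lower, a share near the 11% called over all genes. The lower gene, Lrrk2, a kinase known in striatal neurons, had 19.4 ± 7.28 CPM in SN and 49.8 ± 13.6 CPM in STR (log2 fold change -1.38). The Lrrk2 call was lost without the first or the third SN or the first or the third STR library (largest adjusted p = 0.0885).

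Spiny neuron genes were lower in SN. Of 20 genes shared by spiny neurons of both pathways, 16 fell, none rose and 4 did not pass, with a median log2 fold change of -2.51. Leaving out a library moved the count between 12 and 18. Ppp1r1b (chr11:98348406-98357796) had 111.7, 79.5 and 64.1 CPM in SN and 2204, 771.5 and 998.6 CPM in STR (log2 fold change -3.98 ± 0.454, edgeR adjusted p = 0.00236). STR library 1 was the highest and library 2 the lowest, and the regions did not overlap. The list summed to 13153, 4699 and 7274 CPM in STR libraries 1, 2 and 3, and to 1472, 1713 and 1618 CPM in SN. Others that fell were Pde10a, which degrades cyclic nucleotides (log2 fold change -3.72), Rgs9, which speeds the turn-off of G proteins (-3.71), the synaptic actinin Actn2 (-3.91), the G protein subunit Gng7 (-3.32), Syndig1l (-3.26) and the small G protein Rasd2 (-2.81). The lower calls of this list fell to 12 without the first SN library.

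The markers that divide the spiny neurons by pathway fell on both sides. Direct-pathway genes gave 5 lower of 10 (median log2 fold change -2.13, 3 calls without the first SN library) and indirect-pathway genes 5 of 10 (median -1.98), with none higher in either. Isl1 of the direct-pathway calls and Lhx8 of the indirect-pathway calls reached the level of the low count filter in STR alone. Drd1 (chr13:54051183-54055658), the dopamine receptor of direct-pathway cells, had 2.86, 3.87 and 2.79 CPM in SN and 159.3, 47.6 and 100.4 CPM in STR (log2 fold change -5.04 ± 0.477, edgeR adjusted p = 0.00121). Adora2a (chr10:75316877-75334792), the adenosine receptor of indirect-pathway cells, had 1.26, 2.6 and 1.75 CPM in SN and 304.8, 84.5 and 137.2 CPM in STR (log2 fold change -6.58 ± 0.592, edgeR adjusted p = 0.00097). Both had the same order over the STR libraries as Ppp1r1b. Penk (chr4:4133536-4138815), the enkephalin precursor, had 55.8, 66.7 and 66.9 CPM in SN and 1682, 427.1 and 670.6 CPM in STR (log2 fold change -3.90 ± 0.507). Pdyn, the dynorphin precursor, had 12.4, 21.9 and 13 CPM in SN and 139.5, 60.6 and 86.1 CPM in STR (log2 fold change -2.62 ± 0.359). Tac1, the substance P precursor, had 27.2, 17.0 and 35.4 CPM in SN and 181.6, 61.9 and 83.5 CPM in STR (log2 fold change -2.06 ± 0.441), a call lost without the first or the second SN library (largest adjusted p = 0.0886). Gpr6, an orphan receptor of indirect-pathway cells, also fell, with a log2 fold change of -4.83 ± 0.562. Lhx8, on the indirect-pathway list and among its 5 calls but known as a factor of cholinergic interneurons, had 1 count in SN and 354 in STR, a ratio of 347.4 (95% counting interval 62.0 to 13762).

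Drd2 (chr9:49340360-49408177), which indirect-pathway cells use as a receptor and dopamine neurons as an autoreceptor, overlapped between the regions and did not pass the test. It had 93.5, 30.0 and 42.7 CPM in SN and 235.7, 65.2 and 111.7 CPM in STR. The first SN library, the highest in dopamine neuron genes, lay above the second STR library, the lowest in spiny neuron genes. The log2 fold change was -1.33 ± 0.555 (95% interval -2.62 to -0.04, edgeR adjusted p = 0.188). Of the 5 dopamine receptor genes 3 were tested, Drd3 and Drd4 having too few counts, and Drd1 was the only call.

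Transcription factors of the striatum and its embryonic source fell as well, 12 of 17 tested, with none higher and a median log2 fold change of -1.93. Sp8, among the 12, reached the level of the low count filter in STR alone. Dlx5 and Dlx6, homeobox genes of the ganglionic eminence, had log2 fold changes of -3.35 ± 0.269 (edgeR adjusted p = 0.000694) and -3.48 ± 0.33 (edgeR adjusted p = 0.00121). Six3 had 18, 11.3 and 10.7 CPM in SN and 74.2, 74.2 and 87.7 CPM in STR (log2 fold change -2.57 ± 0.225, edgeR adjusted p = 0.000907). The STR libraries lay close together for Six3, unlike for the spiny neuron receptors. Bcl11b (Ctip2), required for spiny neuron maturation, fell by 2.64 on the log2 scale. Foxp2 (-0.54) and the zinc finger gene Ikzf1 (-0.04) did not pass. Leaving out a library moved the count between 9 and 13.

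**Figure D3:**
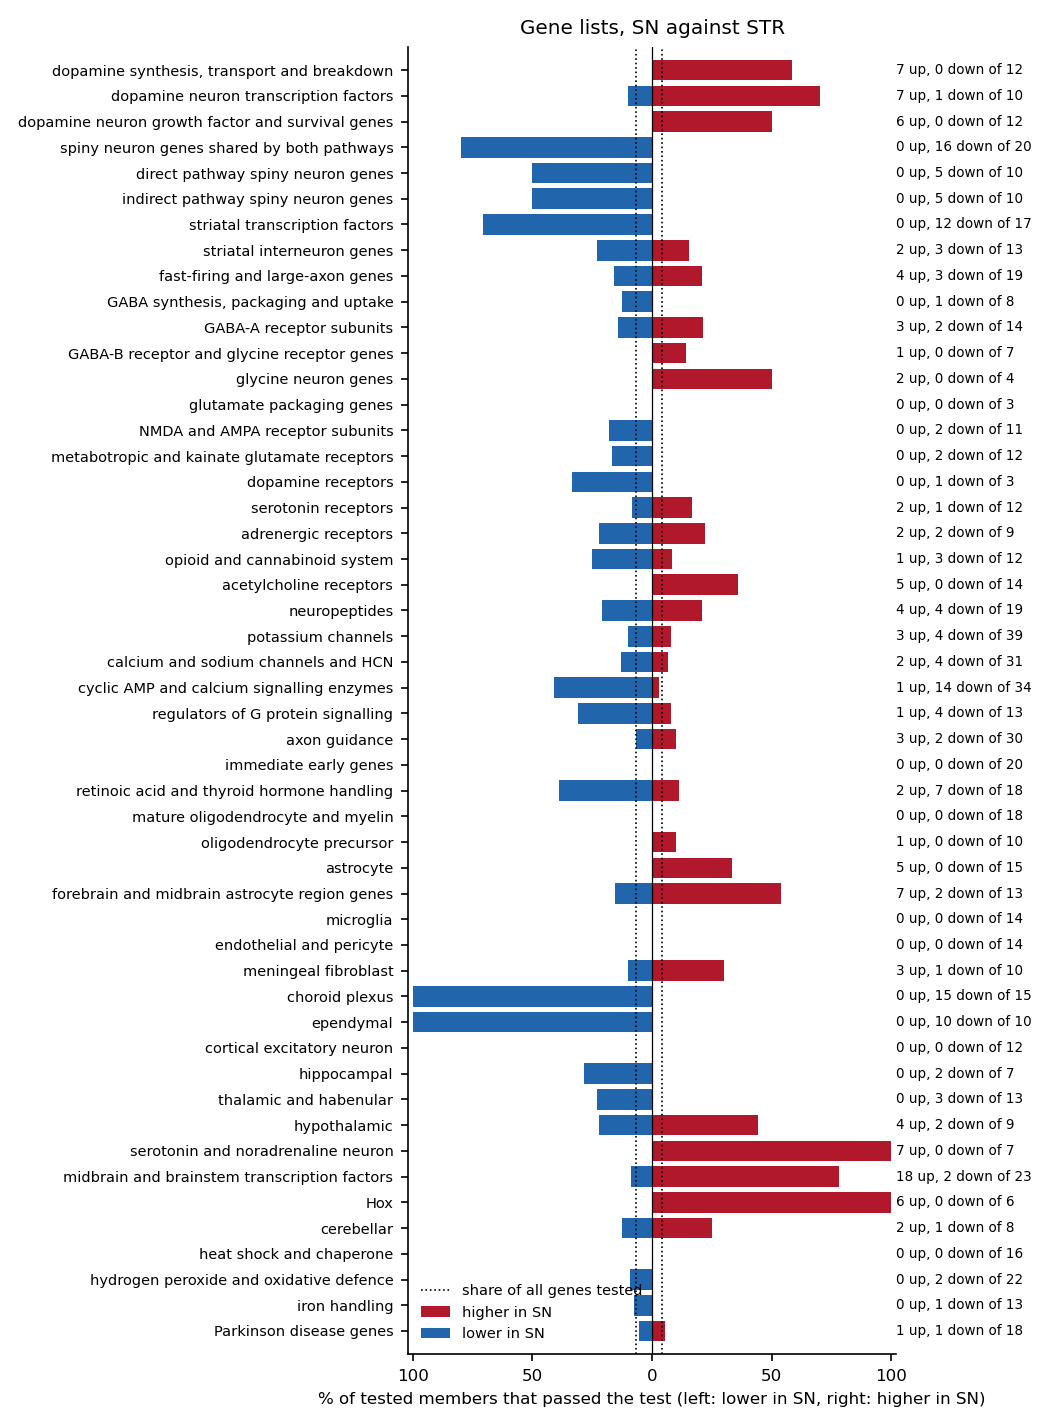
Share of the tested members of 50 gene lists that were lower in SN (blue, to the left) or higher in SN (red, to the right) by edgeR, with the counts beside each bar; dotted lines mark the shares of all genes tested (6.79% lower, 4.24% higher). All tested members of the choroid plexus and ependymal lists are lower, the 6 tested Hox genes passed the filter through SN alone, and the myelin, microglia, endothelial and heat shock lists have no call.

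Cyclic AMP and calcium signalling enzymes, many of which serve dopamine receptor signalling in spiny neurons, had 14 of 34 members lower and 1 higher (median log2 fold change -0.76). Of the 14, 6 are also on the spiny neuron list: Ppp1r1b, Pde10a, Adcy5, Pde1b, Gnal and Gng7. Adcy5, the main adenylyl cyclase of the striatum, had 158.0, 133.9 and 154.2 CPM in SN and 1023, 403.2 and 604.4 CPM in STR (log2 fold change -2.21 ± 0.328, edgeR adjusted p = 0.0058). Pde1b and Pde7b, phosphodiesterases, fell by 2.28 and 2.40 on the log2 scale. The rise, lost without the first SN or the third STR library (largest adjusted p = 0.0522), was Prkar1b, a regulatory subunit of protein kinase A. It had 805.2, 813.0 and 761.1 CPM in SN and 457.5, 546.9 and 439.4 CPM in STR (log2 fold change 0.71, edgeR adjusted p = 0.012). The count of falls depended on single libraries: it was 6 without the first SN library, 9 without the third SN library, 9 without the third STR library and 18 without the second SN library.

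GABA synthesis and uptake genes differed little, while receptor subunits changed in both directions. Both regions are rich in GABA neurons: Slc32a1, the vesicle loader, had a log2 fold change of -0.08 and Gad2 one of -0.54, and neither passed. Gad1 had 484.3 ± 59.4 CPM in SN and 834.9 ± 163.2 CPM in STR (log2 fold change -0.80, edgeR adjusted p = 0.0261), a call lost when any SN library or the third STR library was left out (largest adjusted p = 0.0627). Of 14 GABA-A receptor subunits tested, 3 rose, 2 fell and 9 did not pass, and 5 rose without the second SN library. Gabra4 (chr5:71569734-71658308) had 51.0, 67.2 and 49.9 CPM in SN and 201.4, 178.4 and 307.7 CPM in STR (log2 fold change -2.05 ± 0.235, edgeR adjusted p = 0.0024). Gabrd (chr4:155384979-155398098) had 16, 40.1 and 12.9 CPM in SN and 155.8, 115.2 and 137.8 CPM in STR (log2 fold change -2.59 ± 0.413, edgeR adjusted p = 0.00768). Gabra4 and Gabrd encode subunits that join in extrasynaptic receptors, and both were higher in STR. Gabra4 was highest in STR library 3, which was also the highest in thalamic genes. Gabrd was highest in STR library 1, the highest in spiny neuron genes and the lowest in thalamic ones. The part of thalamic tissue was not tested. On the TPM scale Gabra4 and Gabrd stood at 30.2 ± 5.18 TPM and 26.3 ± 16.2 TPM in SN and at 125.2 ± 40.5 TPM and 153.4 ± 24.5 TPM in STR. Within each region their spreads overlapped. Gabrq, a rarer subunit of monoamine neurons, rose by 2.36 ± 0.325 on the log2 scale. Gabra2 (-0.06), an alpha subunit of forebrain neurons, did not pass.

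Of 4 glycine neuron genes 2 were higher in SN, and of 7 GABA-B and glycine receptor genes 1 was, with none lower. Slc6a5, which was called, and Glra1, which was not, reached the level of the low count filter in SN alone. Slc6a5 (chr7:49906984-49963864), the transporter of glycine-releasing neurons, had 36.3, 62.2 and 147.3 CPM in SN and 0.112, 0.49 and 0.557 CPM in STR (log2 fold change 7.68 ± 0.718, edgeR adjusted p = 0.00114). The third SN library was the highest here, which was not the order of the dopamine genes. The glycine receptor subunit Glra3 (chr8:55940418-56130070) had 37.3, 23.4 and 37.5 CPM in SN and 6.24, 5.61 and 5.07 CPM in STR (log2 fold change 2.52 ± 0.224, edgeR adjusted p = 0.000923). The glial glycine transporter Slc6a9 was called (log2 fold change 0.63), but in only 1 of the 6 fits with a library left out (largest adjusted p = 0.152). Glycine neurons lie mainly in the hindbrain, and the Hox genes, which mark hindbrain and spinal cord, were present in the same SN libraries. The 17 Hox genes in the table summed to 8.69, 10.4 and 41.7 CPM in SN libraries 1, 2 and 3 and to at most 0.169 CPM in STR. Their part in the glycine result was not tested.

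All 6 Hox genes that had enough counts to be tested were called higher in SN, and a gene passed the filter through its SN counts alone. Hoxb3 had 1.6, 1.79 and 8.04 CPM in SN and no count in STR, at least 70.0-fold higher against a floor of 3 counts over the group. Hoxa4 had 103 counts in SN and 1 in STR, a ratio of 104.9 (95% counting interval 18.4 to 4185). Hoxa5 lost its call without the first SN, second STR or the third STR library (largest adjusted p = 0.0595), Hoxb5 when any of the STR libraries was left out (0.081), and Hoxc4 in those 3 fits and without the first SN library (0.0856). Neighbouring Hox transcripts overlap, and how the authors divided shared reads is not given in the sources used here.

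Of 10 serotonin and noradrenaline neuron genes, 7 were tested and passed as higher in SN, with 5 to 7 calls when a library was left out. Of the 7, 5 (Tph2, Slc6a4, Slc6a2, Dbh and Gata3) reached the level of the low count filter in all libraries of SN only, so the count over those tested was in part fixed by the filter. The rest of the list, Fev and Phox2a among it, had too few counts. Tph2, the serotonin synthesis enzyme of the raphe, had 13.5, 21.8 and 70.0 CPM in SN and 0.956, 0.49 and 0.613 CPM in STR (log2 fold change 5.64 ± 0.735, edgeR adjusted p = 0.00372). Slc6a4, the serotonin transporter, had 6.8, 11.1 and 31.2 CPM in SN and at most 0.169 CPM in STR (log2 fold change 7.10 ± 0.876). The noradrenaline transporter Slc6a2 had 1.03, 5.66 and 3.12 CPM in SN and no count in STR, at least 58.8-fold higher over the group floor. Slc6a2 was highest in the second SN library and Tph2 in the third. Dbh, which makes noradrenaline, was called, but not without the second or the third STR library (largest adjusted p = 0.0612). Gata3, a factor of GABA and serotonin neurons of the midbrain and hindbrain, had 17.4, 11.8 and 15.2 CPM in SN and at most 0.223 CPM in STR (log2 fold change 6.56 ± 0.369, edgeR adjusted p = 0.000199).

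Of 23 tested transcription factors of midbrain and brainstem, 18 rose, 2 fell and 3 did not pass. With a library left out 16 or 17 were called higher. Of the 23, 11 reached the level of the low count filter in SN alone. Tal1, which with Gata2 and Gata3 specifies midbrain GABA neurons, had 18.6, 13.7 and 16.3 CPM in SN and 1.24, 0.599 and 1.28 CPM in STR (log2 fold change 3.94 ± 0.299, edgeR adjusted p = 0.000561). Pax5 had 655 counts in SN and 3 in STR, a ratio of 222.5 (95% counting interval 75.8 to 1081). Sox14 had 141 and 1 counts, a ratio of 143.7 (interval 25.4 to 5714). Tal1 and Pax5 varied little among the SN libraries, in contrast to the dopamine and raphe genes. Gucy2c, a guanylyl cyclase receptor of dopamine neurons, was on no list and also ranked among the 12 largest rises, with 27.3, 5.08 and 14.6 CPM in SN and at most 0.871 CPM in STR (log2 fold change 4.35 ± 0.637). Irx2 had 24.6, 21.5 and 54.0 CPM in SN against 1.01, 3.37 and 2.12 CPM in STR (log2 fold change 3.92 ± 0.496). The falls were Otx2 and Zic1, and the Zic1 call was lost without the first or second SN or the second or the third STR library (largest adjusted p = 0.157).

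Most of the largest falls were genes of the choroid plexus: 7 of the 12 largest falls among well expressed genes were on that list, 1 was ependymal and 1, Adora2a, was on a spiny neuron list. Of 15 choroid plexus genes, the epithelium that makes cerebrospinal fluid, 15 were lower in SN, and each stayed lower in every fit with a library left out. The level of the low count filter was reached in STR alone by 5 of them. Ttr, the thyroid hormone carrier that this epithelium secretes, had 50.1, 7.73 and 20.6 CPM in SN and 11550, 16429 and 10993 CPM in STR (log2 fold change -8.96 ± 0.776, edgeR adjusted p = 0.000907). Kcne2 (chr16:92292389-92298133), a potassium channel subunit of this epithelium, had 0.343, 0.0577 and 0.219 CPM in SN and 66.6, 91.0 and 68.3 CPM in STR (log2 fold change -8.47 ± 0.334, edgeR adjusted p = 2.98e-05). The second STR library was the highest for both genes, and it was the lowest for the spiny neuron genes. The water channel Aqp1 (log2 fold change -6.69), the folate receptor Folr1 (-6.85), the coagulation factor F5 (-6.49), the channel Kcnj13 (-6.23) and Kl (-6.20) fell alike. The other 3 of the 12 were Sh3rf2, an adaptor with SH3 domains (log2 fold change -7.56 ± 0.738), Calml4, a calmodulin-like gene (-6.44 ± 0.418), and Ecrg4, a secreted peptide precursor of choroid plexus (-6.24 ± 0.204). Sh3rf2 had 53.5, 12.3 and 32.7 CPM in the STR libraries, the order of the spiny neuron genes, whereas the second STR library was the highest for Calml4 and Ecrg4. The 15 choroid plexus genes summed to between 15080 and 22384 CPM in STR and between 553.3 and 665.9 CPM in SN.

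Ependymal genes, of the ciliated cells that line the ventricles, were lower in 10 of 10 tested, of which 7 reached the level of the low count filter in STR alone. Ccdc153 had 0.171, 0.289 and 0.328 CPM in SN and 11.4, 37.4 and 12.4 CPM in STR (log2 fold change -6.24 ± 0.646, edgeR adjusted p = 0.00166). Sntn had no count in SN and 149 in STR, at least 48.7-fold lower in SN against a floor of 3 counts over the group. Retinoic acid and thyroid hormone genes had 7 lower and 2 higher of 18 tested (4 lower without the first SN library). The falls included Ttr, the retinol receptor Stra6 (log2 fold change -2.65 ± 0.235) and the retinoic acid receptor Rarb of spiny neurons (-2.68 ± 0.378), and the rises were Aldh1a1 and Aldh1a2. Igf2, made by choroid plexus and meninges, had 70.4 ± 9.54 CPM in SN and 389.0 ± 70.6 CPM in STR (log2 fold change -2.48 ± 0.174), and Gpx8, an endoplasmic reticulum peroxidase, had 6.54 ± 1.7 and 27.0 ± 5.83 CPM (-2.06 ± 0.228). The part of the choroid plexus signal in these values was not tested.

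**Figure D4:**
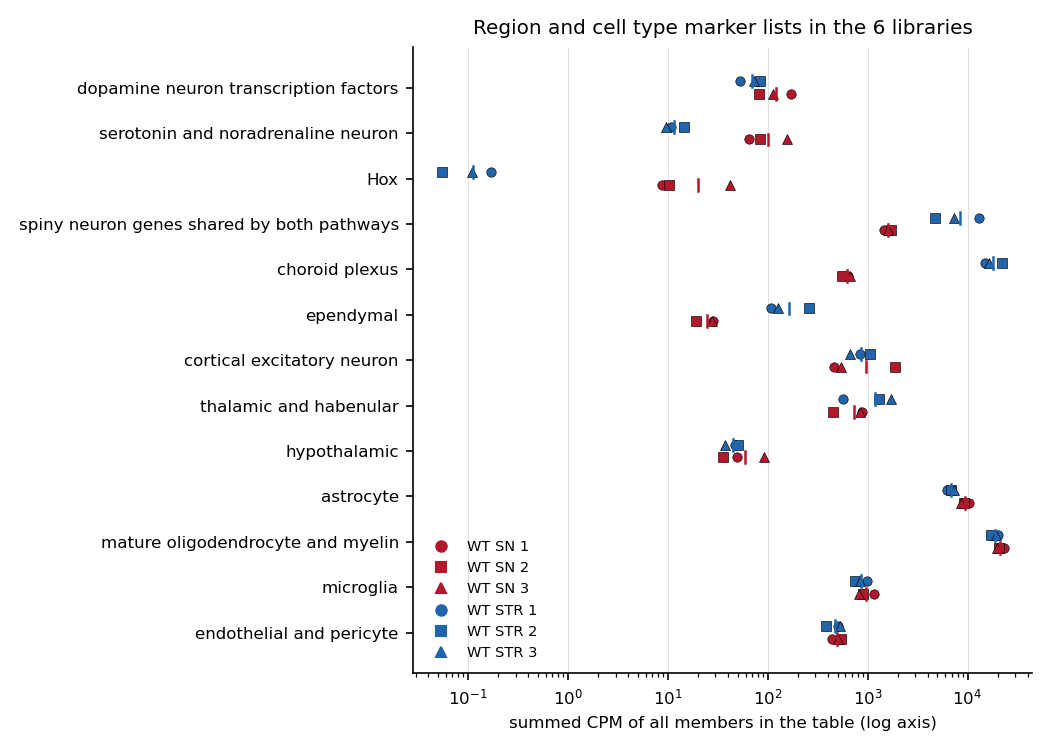
Summed CPM (log axis) of 13 marker lists in each library, red for SN and blue for STR, with a short line at each mean. Choroid plexus sums are at 15080 CPM or more in STR and at 665.9 CPM or less in SN, Hox sums appear only on the SN side above 1 CPM, and the myelin, microglia and endothelial sums of the regions lie close together.

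WT libraries of the other regions give a further view of these genes, as values with no test. The libraries labelled Nac and VTA hold 2 that go against their labels: the library labelled Nac 2 had Slc6a3 at 192.3 CPM and Drd1 at 2.88 CPM, and the library labelled VTA 3 had 0.579 and 136.3 CPM. Ttr was at 17.7 to 57.1 CPM in the 3 libraries high in Drd1 (those labelled Nac 1, Nac 3 and VTA 3), far under the STR libraries. Penk reached 916.6, 1096 and 1375 CPM and Ppp1r1b 1174, 1167 and 1184 CPM in the same 3 libraries, within the range of the STR libraries. Gabra4 (141.6, 141.9 and 136.7 CPM) and Gabrd (93.8, 79.4 and 78.3 CPM) lay between the SN and the STR values. Otx2 (7.69, 2.08 and 2.08 CPM) was far under the STR libraries there, near the SN values, and Igf2 (25.4, 32.3 and 40.3 CPM) was under both. Stra6 (10.2, 11.1 and 9.15 CPM) lay above SN and under STR. A fit to all 18 WT libraries, which takes in the 2 that go against their labels, lost a number of calls. Among those lost were Adcy5, Aldh1a1, Dlx5, Dlx6, En2, Foxa1, Foxa2, Gabrd, Gata3, Gng7, Hoxa4 and Hoxb3. Also lost were Irx2, Pde7b, Pdyn, Pitx3, Rarb, Ret, Slc6a4, Sncg, Sox14 and Tph2, and some that a left-out library also ended.

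Receptors for acetylcholine, serotonin and noradrenaline changed gene by gene. Of 14 acetylcholine receptor genes 5 rose and none fell by edgeR, and Chrna6 and Chrnb3 of the dopamine list were among them. All 5 reached the level of the low count filter in SN alone, and without the second SN library 2 genes were lower. Chrna5 had 7.14, 2.71 and 6.18 CPM in SN and 0.337, 0.599 and 0.613 CPM in STR (log2 fold change 3.34 ± 0.456, edgeR adjusted p = 0.00436). Chrna2 rose by 3.43 ± 0.643 on the log2 scale. Chrm5, the muscarinic receptor of dopamine neurons, was called higher (log2 fold change 3.09), but the call held in only 1 of the 6 fits with a library left out (largest adjusted p = 0.13). Chrm4, known in direct-pathway cells, had a log2 fold change of -2.20 and did not pass. Of 12 serotonin receptors, 2 rose and 1 fell, and Htr5a (log2 fold change 0.87 ± 0.159) kept its call in all 6 of those fits, while Htr1a (1.48) and Htr1d (-1.63) did not (largest adjusted p = 0.119 and 0.104). Of 9 adrenergic receptors, 2 rose (Adra1a and Adra2a) and 2 fell (Adra2b and Adra2c), but each lost its call in at least 1 of the 6 fits (largest adjusted p = 0.0539, 0.0548, 0.0513 and 0.157). None was called lower without the first SN library. For both lists the shares of all genes tested were 4.24% higher and 6.79% lower. Oprl1, the nociceptin receptor, had 88.2 ± 9.6 CPM in SN and 42.0 ± 9.79 CPM in STR (log2 fold change 1.06 ± 0.181, edgeR adjusted p = 0.0102), and Dagla, which makes the endocannabinoid 2-AG, fell by 0.88 ± 0.138.

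**Figure D5:**
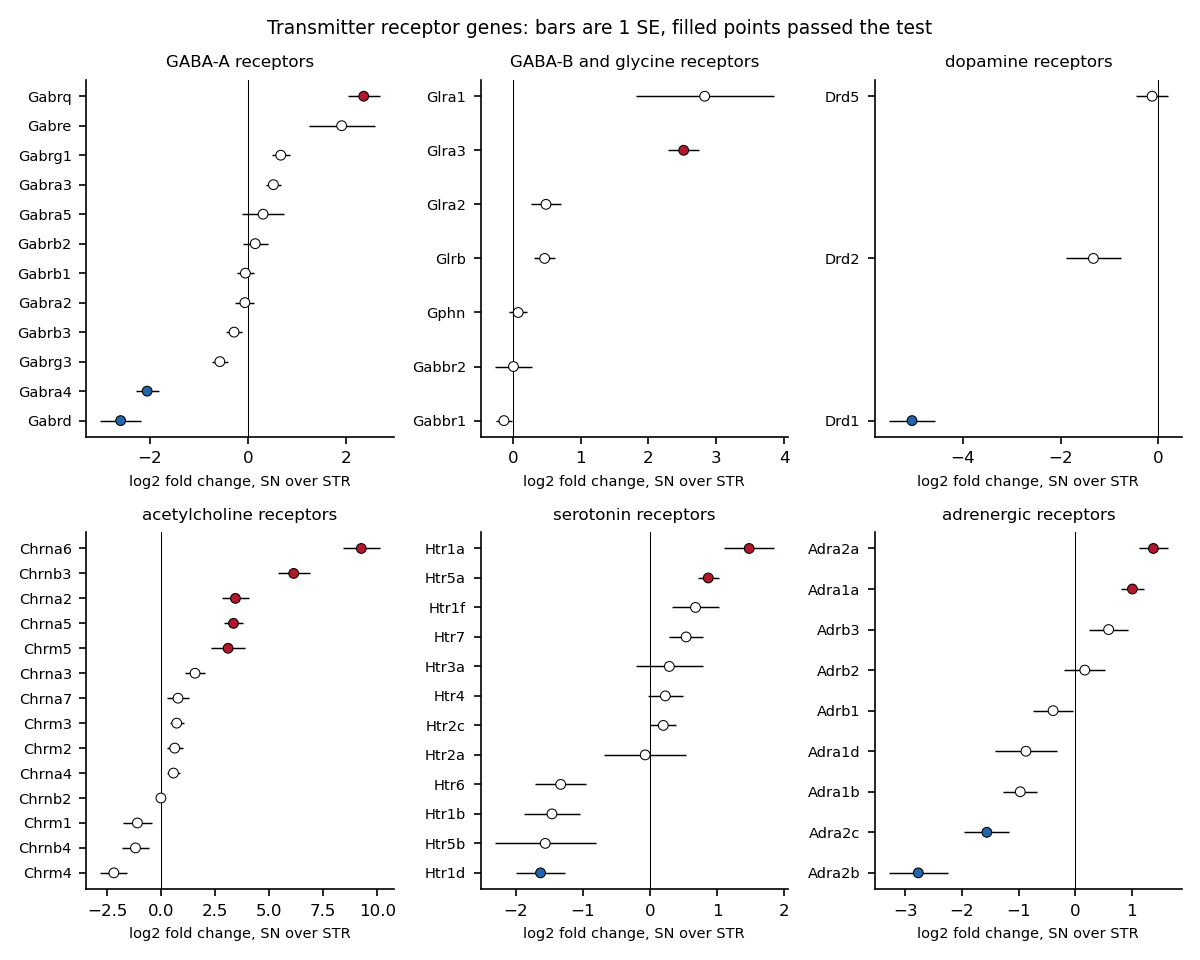
Log2 fold change of SN over STR, with bars of 1 standard error, for receptor genes of 6 transmitter families; red points were higher in SN, blue points lower and white points did not pass edgeR's test. Gabrq stands right of 0 and Gabra4 and Gabrd left of it, and Chrna6 has the largest rise (9.26).

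Calls among glutamate receptor genes rested on single libraries. Of 11 NMDA and AMPA subunits 2 were lower, and of 12 metabotropic and kainate receptors 2 were lower, with none higher by edgeR (6.79% of all genes were lower). Without the first SN library none of the 4 was called. Grin2b had 81.8 ± 26.6 CPM in SN and 172.7 ± 22.6 CPM in STR (log2 fold change -1.09), Grin2c had a log2 fold change of -0.65, Grm4 of -1.03 and Grm5 of -0.71. Each of these 4 calls was lost in at least 3 of the 6 fits with a library left out (largest adjusted p = 0.0744, 0.0983, 0.111 and 0.151). The vesicular glutamate transporter Slc17a7 of cortical neurons overlapped, at 133.3, 715.8 and 248.1 CPM in SN and 88.7, 489.2 and 222.2 CPM in STR. Cortical genes had no call in 12 by edgeR (3 at an unadjusted p under 0.05, 2 by DESeq2), and they summed to 1865 CPM in the second SN library against 463.7 and 547.4 CPM in the other SN libraries. 

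Ion channel genes gave 3 rises and 4 falls among 39 potassium channel genes and 2 rises and 4 falls among 31 calcium, sodium and HCN channel genes, 7 and 6 calls against the 11% of all genes. The falls depended on single libraries: potassium channels had 1 without the first SN library and 7 without the second, and the other channels 0 and 1. Kcnc4, a channel subunit of rapid repolarization, had 96.1, 119.3 and 111.3 CPM in SN and 32.1, 37.0 and 36.7 CPM in STR (log2 fold change 1.61 ± 0.126, edgeR adjusted p = 0.000629). The regions did not overlap. Kcnj16, an inward rectifier of glia, rose by 1.52 ± 0.21, and Kcna4, which carries a transient potassium current, fell by 1.24 ± 0.201. Kcnip2, a partner of transient channels in spiny neurons, had 19.4, 54.6 and 13.9 CPM in SN and 248.3, 151.9 and 124.0 CPM in STR (log2 fold change -2.60 ± 0.526), a call lost without the first SN library (adjusted p = 0.0816). Genes of fast-firing neurons with large axons gave 4 rises and 3 falls of 19, with 1 to 4 rises and 1 or 2 falls when a library was left out. Syt2 (log2 fold change 1.49), Vamp1 (1.23), Spp1 (1.70) and Nefl (0.80) rose, but each call was lost in 2 or 3 of the 6 fits (largest adjusted p = 0.0656, 0.0626, 0.106 and 0.0603). In all 4 the third SN library, the highest in Hox genes, was the highest, and the part of that tissue was not tested.

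Neuropeptide genes split evenly, with 4 rises and 4 falls of 19 tested (2 rises without the first SN library), against 4.24% and 6.79% of all genes. Adcyap1, which encodes the peptide PACAP, had 58.7, 30.3 and 68.4 CPM in SN and 3.04, 6.59 and 4.12 CPM in STR (log2 fold change 3.50 ± 0.381, edgeR adjusted p = 0.00205). Grp, the gastrin-releasing peptide, had 7.89, 9.76 and 4.65 CPM in SN and at most 0.98 CPM in STR (log2 fold change 3.42 ± 0.389). Besides Penk, Pdyn and Tac1, Trh fell, from 22.1 ± 0.445 CPM in STR to 3.64 ± 1.26 CPM in SN. Of 20 immediate early genes, which report recent neuronal activity, none was called by edgeR (7 lower and 1 higher at an unadjusted p under 0.05, 5 lower and 1 higher by DESeq2). Without the second SN library 11 were lower in SN. That library had the highest sum of these genes among the SN libraries, at 931.8 CPM against 423.4 and 442.4 CPM, and also the highest sum of cortical genes. The part of cortical tissue in this difference was not tested.

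Among glia, astrocyte genes had the calls. Of 15 tested, 5 rose and none fell, with a median log2 fold change of 0.51, and 3 rose without the first or without the second STR library. Gfap (chr11:102887336-102897200), the intermediate filament of fibrous astrocytes, had 998.1, 718.2 and 680.6 CPM in SN and 227.7, 323.2 and 266.9 CPM in STR (log2 fold change 1.54 ± 0.199, edgeR adjusted p = 0.00365). Aqp4, the water channel of astrocyte endfeet, had 393.7, 377.8 and 465.9 CPM in SN and 139.9, 116.6 and 204.5 CPM in STR (log2 fold change 1.41 ± 0.217, edgeR adjusted p = 0.00674). Both rose without overlap, and S100b rose by 0.86 ± 0.148. Slc1a2 (-0.04) and Slc1a3 (-0.08), the glutamate transporters of astrocytes, and Aldh1l1 (0.18) did not pass. Agt (log2 fold change 1.46) and Aldoc (0.64) lost their calls in 3 and 4 of the 6 fits (largest adjusted p = 0.0962 and 0.112). By edgeR, myelin genes had no call in 18, microglial genes none in 14 and endothelial and pericyte genes none in 14. DESeq2 called none of them either, and 1, 0 and 0 genes had an unadjusted p under 0.05. Their median log2 fold changes were 0.11, 0.11 and 0.05, close to that of all genes. The single call among 10 oligodendrocyte precursor genes was C1ql1 (log2 fold change 1.41 ± 0.225).

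Thalamic genes had 3 calls of 13, all lower in SN, which became 6 without the first STR library and 1 without the first SN, the second STR or the third STR library. Prkcd, a kinase of thalamic relay neurons, had 55.2, 14.4 and 73.3 CPM in SN and 145.5, 357.1 and 564.3 CPM in STR (log2 fold change -2.91 ± 0.658), and lost its call without the first SN, the second STR or the third STR library (largest adjusted p = 0.0962). Lef1, a factor of thalamic neurons, fell by 1.94 ± 0.279. The list summed to 566.0, 1292 and 1705 CPM in STR libraries 1, 2 and 3, lowest in library 1, which was the highest in spiny neuron genes. Housekeeping lists changed little: none of 16 heat shock genes by edgeR (3 at an unadjusted p under 0.05, 1 by DESeq2), 2 of 22 oxidative defence genes (Gpx1 and Gpx8, both lower) and 1 of 13 iron handling genes (Hfe, log2 fold change -1.05 ± 0.175) passed the test. Over all genes tested, 11% passed. Gpx1 lost its call without the first or second STR library (largest adjusted p = 0.0664).

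Genes that divide midbrain from forebrain astrocytes gave 7 rises and 2 falls of 13, and Gfap, Agt, Irx2 and Slc6a9 above were among the rises. Without the first STR library 3 rose, without the second or the third STR library 4, and in the fit to all 18 WT libraries 2. Irx5, a homeobox gene, rose by 1.99 ± 0.316 on the log2 scale. Gdf10, a growth factor of forebrain and cerebellar glia, had 3.54, 4.62 and 3.01 CPM in SN and 10.9, 10.5 and 9.75 CPM in STR (log2 fold change -1.49 ± 0.204, edgeR adjusted p = 0.00437). Of 13 striatal interneuron genes, 2 were higher, Th and Ache, and 3 lower, the latter between 1 and 6 with a library left out (6 without the second SN library, 1 without the third SN or the first STR library). Over all genes tested, 4.24% were higher and 6.79% lower. Gbx1, among the 3, reached the level of the low count filter in STR alone, as did Slc18a3 and Nkx2-1, which did not pass. Ache, the enzyme that splits acetylcholine, lost its call without the first SN or the third STR library (largest adjusted p = 0.0655). Gbx1, a factor of cholinergic interneurons, had 0.9, 0.653 and 0.836 CPM in STR and at most 0.0547 CPM in SN, where 1 library had 1 count. Chat, the acetylcholine synthesis enzyme of those cells, had 1.03, 3.29 and 1.48 CPM in SN and 14.6, 5.55 and 10 CPM in STR (log2 fold change -2.40), a call lost without the first or the third SN or the first or the third STR library (largest adjusted p = 0.076). Pvalb, of fast-spiking interneurons, had 219.3, 187.5 and 176.2 CPM in SN and 292.8, 319.4 and 278.8 CPM in STR (log2 fold change -0.62), lost without the second or the third SN or the first or second STR library (largest adjusted p = 0.0815).

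Among 30 axon guidance genes 3 rose and 2 fell, near the shares of all genes (4.24% and 6.79%). Ntn1, the midline attractant netrin, had 64.2, 32.3 and 49.5 CPM in SN and 16.7, 14.4 and 15.1 CPM in STR (log2 fold change 1.65 ± 0.249, edgeR adjusted p = 0.00613). Epha7, an ephrin receptor, had 18.5, 23.5 and 25.4 CPM in SN and 47.3, 59.5 and 51.5 CPM in STR (log2 fold change -1.25 ± 0.15, edgeR adjusted p = 0.00287). Neither gene overlapped between the regions. Of 13 regulators of G protein signalling 1 rose and 4 fell. The falls were 1 (Rgs9) without the first SN, the third SN, the first STR or the third STR library and 6 without the second SN library. Rgs17 had 125.9, 122.1 and 160.2 CPM in SN and 69.2, 70.2 and 72.5 CPM in STR (log2 fold change 0.93 ± 0.135, edgeR adjusted p = 0.00526), against the direction of Rgs9. Otp, a factor of hypothalamic and brainstem peptide neurons, had 6.0, 9.47 and 13.7 CPM in SN and at most 1.2 CPM in STR (log2 fold change 4.06 ± 0.621), and Avp, the vasopressin precursor, had 4.33, 4.52 and 3.34 CPM in STR and at most 0.514 CPM in SN (-3.92 ± 0.473). Wfs1, an endoplasmic reticulum protein of striatal and hippocampal neurons, had 40.3, 48.6 and 45.4 CPM in SN and 136.8, 116.1 and 111.5 CPM in STR (log2 fold change -1.46 ± 0.138, edgeR adjusted p = 0.0012). Barhl1, a factor of the subthalamic and cerebellar region, rose by 5.91 ± 0.726. The Barhl1, Gbx1, Irx5, Otp and Wfs1 calls were also lost in the fit to all 18 WT libraries.

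In the authors' deposited table, 2358 genes had a q-value under 0.05 for this pair of groups. The header of its fold change column names SN and STR but does not say which region is the numerator. The column was read as STR over SN. Under that reading, 1602 of the 1613 edgeR calls were among the 2358 genes with the same direction, so the shared direction rests on the reading. For STR over SN, the log2 fold change in the authors' deposited table was -9.55 for Slc6a3 and 5.02 for Drd1. In the authors' deposited table Maoa had a log2 fold change of -0.71 for STR over SN (q = 6.48e-05) and Drd2 one of 1.31 (q = 0.282).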

How the data were processed

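RNA-seq of WT SN and WT STR tissue (3 libraries each) was analysed from the gene table. Libraries were made with a SMARTER mRNA kit per the labels' protocols, and the genome build was GRCm38.p6 per the submitters' processing notes; the sources used here do not name the aligner or counter, or say whether strand was used. The authors deposited estimated counts per gene, of which 9.9% were not whole, and these were rounded. The authors deposited TPM values beside them, used to compare levels between genes. The authors' deposited table of comparisons gives log2 fold changes, for which the file headers name no tool, and p-values and q-values, for which they name DESeq2. These values are printed only where that table is named. A deposited count of called genes (another unit) per comparison was read as well. A further 246 per-sample columns were not used.

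Of 19025 genes, those passing filterByExpr entered, after TMM scaling, the quasi-likelihood test of edgeR 4.0.16 (R 4.3.3) at a Benjamini-Hochberg adjusted p under 0.05. The fit held the 6 libraries and region as its only term. SE and 95% intervals come from the same fit; CPM are counts over the library total, given as mean ± SD. Counting intervals and floors cover counting error only. Identifiers of 18969 genes matched RefSeq (GRCm38.p6), which gave coordinates and promoters. Alternatives were DESeq2 1.42.0, RLE scaling, no low count filter, a replicate block, a fit to all 18 WT libraries and leaving out each library. The fit was tested on simulated data. No libraries were alike enough to be copies.

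Members and the 50 gene lists were chosen with earlier results of these data known. The text names always Th, Slc6a3, Ddc, Slc18a2, Maoa, Maob, Drd1, Drd2, Penk, Pdyn, Tac1, Ppp1r1b and Ttr, 12 rises and 12 falls, taken by size of fold change among called genes without overlap whose mean log2 CPM is 3 or more, and up to 6 called members per list by p-value. Other list members that are named, and all values of libraries outside SN and STR, were picked after their values were seen. Some genes that the rule names are not reported here.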

Additional observations from a re-analysis of the deposited data

How the results depend on the processing

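Of 177 named genes, none reversed direction under any alternative, and 117 of the 174 called ones kept their call whichever library was left out. DESeq2 was fitted to the 17968 genes with a count in the 6 libraries, in place of the 14621 past the filter. Not all of the 17968 need receive an adjusted p from it. It called 1045 genes higher and 1376 lower, against 620 and 993. Leaving out a library gave 302 to 597 genes higher and 500 to 988 lower. The labels do not say whether same-numbered libraries come from the same mouse. Same-numbered SN and STR libraries deviated from their region means with correlations of 0.06, -0.05 and 0.49. Not every library correlated best with its own number, but the third SN and the third STR library did. With 3 libraries a region, these values cannot settle whether the numbers pair the libraries. A fit with the replicate block called 773 genes higher and 1026 lower, sharing 1366 of the 1613 calls in the same direction, and Drd2 passed as lower in SN under the replicate block alone (log2 fold change -1.3, adjusted p = 0.0061). The fit to all 18 WT libraries, 2 of which go against their labels, called 440 genes higher and 855 lower, shared 1043 calls and lost 63 of the named ones. It called 3 dopamine neuron transcription factors and 3 serotonin and noradrenaline genes higher, against 7 and 7 in the fit to the 6 libraries. It called 2 striatal transcription factors lower, against 12, and 1 Hox gene higher, against 6. Those 6 Hox calls were all lost, so the 1 was another Hox gene. Under the block the cyclic AMP and calcium enzymes had 9 lower, against 14. RLE scaling called 663 genes higher and 960 lower, no low count filter 643 and 1057, and no scaling between libraries, an alternative chosen after seeing the data, 619 and 942. The share of calls that were higher was 38.4% and ran from 29.5% without the first STR library to 43.2% with DESeq2. With 3 libraries a region, a missed call does not show equal levels, and genes of a few counts were left out by the filter; groups this small were not searched for single outlying libraries.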

Other observations

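Imprinted genes, a list chosen after its values were seen and therefore given with no test of the list, gave 7 calls higher and 3 lower by edgeR of 27 tested, and 17 did not pass. Over all genes tested, 4.24% were higher and 6.79% lower. The median log2 fold change was 0.87, against -0.01 over all genes tested. Dlk1, a membrane ligand of the Notch type, had 309.5, 95.6 and 168.9 CPM in the SN libraries and 12, 23.9 and 6.46 CPM in the STR libraries (log2 fold change 3.75 ± 0.582, edgeR adjusted p = 0.00686). The libraries labelled Nac 1, Nac 3 and VTA 3, which were high in Drd1, had 74.5, 113.9 and 151.1 CPM of Dlk1, far above the STR libraries. Nap1l5 (1.15 ± 0.163), Impact (1.17 ± 0.163), Usp29 (0.98 ± 0.226), Peg3 (0.97 ± 0.231), Peg10 (1.17 ± 0.303) and Kcnk9 (1.34 ± 0.314) also rose, each given as log2 fold change and SE. Peg3, Usp29 and Peg10 lost their calls in all fits with a library left out except that without the second SN library (largest adjusted p = 0.105, 0.0959 and 0.131), and Kcnk9 without the third SN library or any of the STR libraries (largest adjusted p = 0.0887). The falls were Igf2 (-2.48 ± 0.174), Cdkn1c (-2.17 ± 0.228) and Mest (-1.05 ± 0.154), and choroid plexus genes moved with them; the part of that tissue was not tested.

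The sequence GTTGCCAT, the core of the element bound by RFX factors of ciliated cells, was searched on both strands of the 300-base promoters. It was in 442 of 32851 promoters (1.35%), in 30 of 758 matched genes lower in SN (3.96%), in 5 of 475 matched genes higher in SN (1.05%) and in 138 of 10375 genes that did not pass (1.33%). The difference was not tested. Of 8 ependymal genes with a promoter in the table, it was in Sntn.

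In the knock-in libraries labelled SN, Slc6a3 was at 1.19, 0.776 and 421.0 CPM, so that only the third resembled the WT SN libraries in this gene. Drd1 was at 5.08, 178.0 and 17.4 CPM in the same libraries. In those labelled STR, Ttr was at 9807, 10746 and 3746 CPM. Their Drd1 was at 77.9, 54.4 and 9.59 CPM and their Slc6a3 at 0.297, 0.118 and 65.8 CPM, so that the third differed from the WT STR libraries in both genes.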
